A study of Homo sapiens with 9 samples.

Results

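Small nucleolar RNA (snoRNA) host genes are genes whose introns carry snoRNAs. The set described here holds 9 non-coding host genes, listed by symbol (SNHG1, SNHG5, SNHG6, SNHG8, SNHG12, SNHG15, SNHG16, GAS5 and ZFAS1), and each symbol matched 1 of the 78899 gene IDs in the count files. All 9 had enough reads to be tested, among 16921 genes that passed the filter on low counts. RNA came from HaCaT cells, an established line of immortalized human keratinocytes grown in high-glucose medium with serum and low calcium. The 9 libraries are 3 of BD and 3 of NBD, subpopulations separated by fluorescence-activated sorting whose names the labels do not spell out, and 3 of the cell line, named control. Whether control cells also went through the sorter is not stated in the labels. No treatment or allele is given for any group, and all of the cells belong to 1 line.

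A host transcript is spliced, its excised introns are trimmed to snoRNAs, and the snoRNAs guide the chemical modification of ribosomal and other RNAs. Box C/D snoRNAs guide ribose methylation and box H/ACA snoRNAs guide the conversion of uridine to pseudouridine. The spliced host RNA that remains usually encodes no protein, is often removed by nonsense-mediated decay when it is translated, and in several of these genes begins with a pyrimidine tract of the kind found in ribosomal protein mRNAs. GAS5, for growth arrest specific, is known for the rise of its RNA when growth or translation stops.

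Total counts were 17128797 to 29512856 per library. Keratinocyte markers were high in every library: the summed level of 9 markers, KRT5, KRT14, TP63 and ITGA6 among them, was 2663 to 4283 CPM (counts scaled to a library of 1000000, with the total adjusted by TMM). The summed level was at most 5.24 CPM for 7 fibroblast markers, 5.63 for 6 melanocyte markers, 7.13 for 7 immune markers and 18.9 for 5 endothelial markers, and in these lists 3, 4, 4 and 2 markers had at most 3 counts in every library, COL1A2, MLANA, CD3E and KDR among them. Others were counted: CDH5, an endothelial marker, reached 18.8 CPM (546 counts), CD14 reached 6.86 CPM (199 counts), COL1A1 reached 3.76 CPM (109 counts), PMEL reached 1.81 CPM (46 counts) and MITF stood at 2.01 to 4.30 CPM. The part of such cells in the results was not tested. The control libraries were not alike: mitochondrial rRNA took 12.3 and 11.9% of counts in control replicates 1 and 2 and 20.7% in control replicate 3, and comparisons with control are given with and without control replicate 3. In bulk RNA, fewer cells of a type and less RNA per cell cannot be told apart.

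The host genes differ in what they carry, which orders the account below. By RefSeq positions on GRCh38, 35 snoRNA genes lie within the 9 hosts. GAS5 holds 11 and SNHG1 holds 9, mostly of the box C/D class. SNHG16 and ZFAS1 hold 3 each, SNHG5 holds 2 and SNHG6 holds 1, all C/D. SNHG8 and SNHG15 each hold 1 of the H/ACA class, and SNHG12 holds 4 of both classes. Examples are shown for SNHG1, the host with the largest difference between groups, and for ZFAS1, the one host with a counted snoRNA. Capitals mark the letters TGATGA and CTGA, which form boxes C and D, searched on the transcribed strand with TGATGA near the 5′ end and CTGA near the 3′ end.
SNORD25, in SNHG1, chr11:62855564-62855632, minus strand: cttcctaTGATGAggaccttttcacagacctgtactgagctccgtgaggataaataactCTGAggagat
SNORD27, in SNHG1, chr11:62855012-62855083, minus strand: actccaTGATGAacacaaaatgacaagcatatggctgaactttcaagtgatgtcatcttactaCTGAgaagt
SNORD30, in SNHG1, chr11:62853663-62853732, minus strand: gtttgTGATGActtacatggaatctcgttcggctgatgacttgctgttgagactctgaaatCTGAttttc
SNORD12B, in ZFAS1, chr20:49280319-49280409, plus strand: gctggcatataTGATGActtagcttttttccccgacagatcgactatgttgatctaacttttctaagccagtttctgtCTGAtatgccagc
Both sets of letters were found in 3 of the 7 SNHG1 snoRNA entries of GENCODE 29, in all 3 of ZFAS1, and in 26% of the 955 snoRNA transcripts of that annotation. Those 955 were not split into C/D and H/ACA classes.

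The start of the host RNA is the other sequence feature described, for the pyrimidine tract that some of these genes share with ribosomal protein mRNAs. Windows of 20 bases before and 30 bases from the RefSeq start (GRCh38.p14) were read for 7 of the hosts. SNHG6 and SNHG15 were left out of these windows, so the count of windows below does not cover every host. Capitals mark the unbroken run of C or T that begins at the start.
SNHG1, chr11:62855856-62855905, minus strand: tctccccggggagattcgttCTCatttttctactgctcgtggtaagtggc
SNHG5, chr6:85678704-85678753, minus strand: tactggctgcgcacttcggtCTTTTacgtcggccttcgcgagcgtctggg
SNHG8, chr4:118278742-118278791, plus strand: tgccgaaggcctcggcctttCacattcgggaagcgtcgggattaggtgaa
SNHG12, chr1:28581844-28581893, minus strand: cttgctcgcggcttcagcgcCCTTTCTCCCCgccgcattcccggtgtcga
SNHG16, chr17:76557744-76557793, plus strand: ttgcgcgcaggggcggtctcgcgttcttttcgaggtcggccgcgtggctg
GAS5, chr1:173869016-173869065, minus strand: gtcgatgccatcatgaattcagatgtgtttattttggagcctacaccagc
ZFAS1, chr20:49278622-49278671, plus strand: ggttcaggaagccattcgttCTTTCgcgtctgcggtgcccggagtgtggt
A C at the start followed without a break by C or T, for a run of at least 5 bases, was present in SNHG5, SNHG12 and ZFAS1, that is 3 of 7 windows, against 4.07% of 35116 RefSeq windows. Among GENCODE 29 transcripts, which list many starts per gene, 23 of 132 host transcripts began this way (17.4%), against 2.41% of 206694 transcripts. GAS5 had 6 such transcripts of 29, SNHG6 had 3 of 5, SNHG1 had 1 of 25 and SNHG15 had 0 of 10. These are descriptions of annotated starts, which were not measured here. The GAS5 window lies wholly upstream of the GENCODE 29 gene (173863900 to 173868882), so it does not describe a start in that annotation.

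Together the 9 genes took 0.0730 to 0.0917% of all counts in a library, at 0.0847 ± 0.0102% in BD, 0.0862 ± 0.00547% in NBD and 0.0893 ± 0.00154% in control (SD, n = 3 each). The 3 groups overlapped in this share. Levels per kilobase of annotated exon (CPM per kb, GENCODE 29 lengths) put GAS5 highest, at 78.3 ± 13.6 over the 9 libraries, followed by ZFAS1 at 52.0 ± 9.68, SNHG8 at 41.1 ± 8.18, SNHG1 at 34.6 ± 11.1, SNHG16 at 32.5 ± 5.97 and SNHG6 at 31.9 ± 7.59. SNHG15 stood at 13.2 ± 1.83, SNHG12 at 6.02 ± 1.5 and SNHG5 at 5.22 ± 1.98 CPM per kb. The ranges of each of the first 5 overlapped those of the next in the order, as did those of SNHG12 and SNHG5, while SNHG6 and SNHG15, and SNHG15 and SNHG12, did not overlap. GAS5 was above ZFAS1 in 9 of 9 libraries, whereas SNHG1 was above SNHG16 in 5 of 9. The authors may have used other exon models, which would shift this order.

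**Figure D1:**
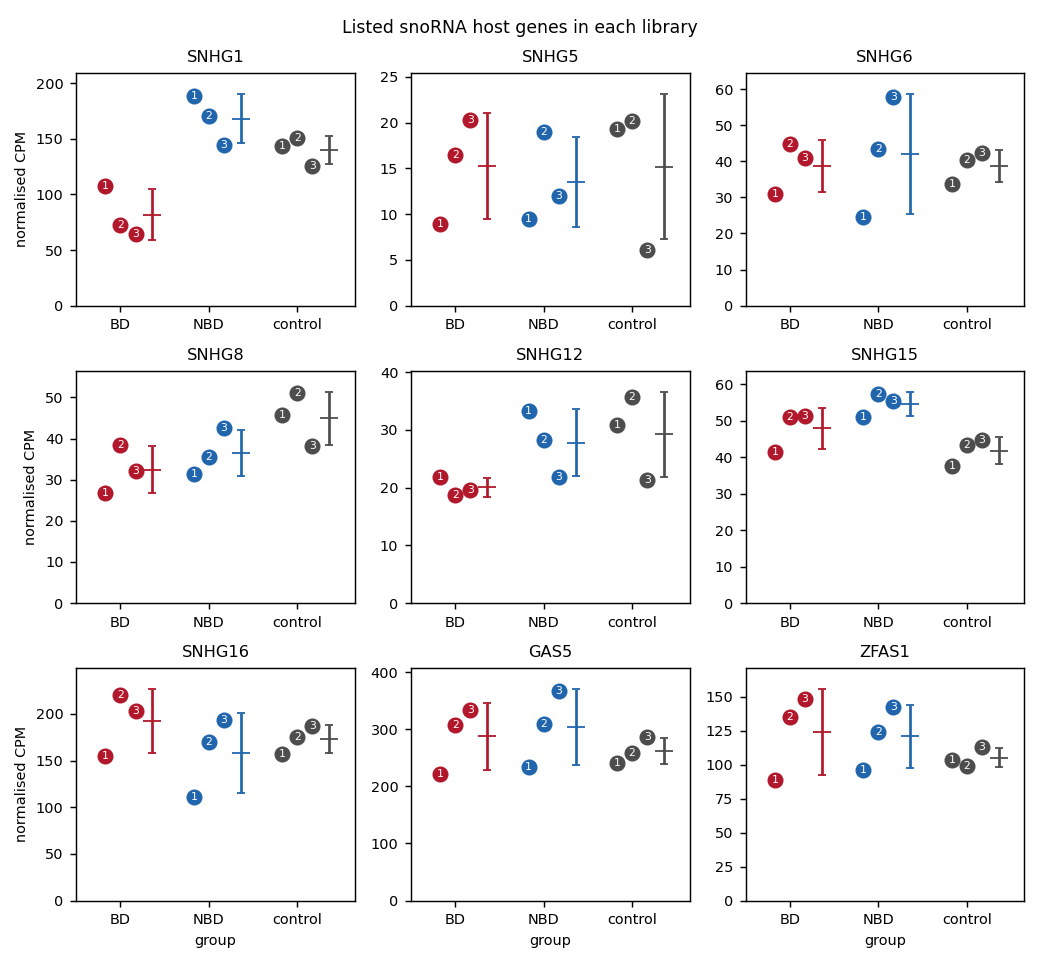
Normalised CPM (y axis, linear, from 0) of each host gene by group (x axis). Each numbered point is 1 library with its replicate number, and the bar beside it is the group mean ± SD (n = 3). The 3 BD points of SNHG1 lie between 64.7 and 108 CPM, below the other 6 at 126 to 189 CPM.

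SNHG1, a box C/D host on chromosome 11 (62851988 to 62855914, minus strand, ENSG00000255717), was the member that differed most between BD and NBD. It stood at 108, 72.9 and 64.7 CPM in BD replicates 1, 2 and 3, at 189, 171 and 145 CPM in NBD, and at 143, 150 and 126 CPM in control. All 3 BD libraries were below all 6 others, a separation that 2.56% of tested genes show. NBD and control overlapped. Between BD and NBD the log2 fold change was -1.04 ± 0.22 (SE). By edgeR's quasi-likelihood test it had an unadjusted p of 0.00064 and no call after Benjamini-Hochberg adjustment over all genes (adjusted p = 0.368).

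DESeq2 called SNHG1 lower in BD than in NBD (log2 fold change -1.03, adjusted p = 0.00773), where it called 0.337% of genes. edgeR with no filter on low counts called it too (adjusted p = 0.0127), where 0.333% of genes were called. Over 18 alternatives the log2 fold change ran from -1.30 to -0.89 and adjusted p from 0.00773 to 1.00. The share of mitochondrial rRNA moved with the groups, at 17.3 to 22.3% of counts in BD and 26.8 to 28.9% in NBD. With both mitochondrial rRNA genes taken out of the fit, SNHG1 stood at -1.02 (edgeR, adjusted p = 0.355).

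The share that SNHG1 held of the reads of all 9 hosts does not depend on library scaling. It was 15.3, 8.07 and 7.07% in BD, 24.2, 17.8 and 13.9% in NBD, and 17.7, 17.2 and 14.5% in control. BD replicate 1, at 15.3%, thus lay above NBD replicate 3 and control replicate 3, and on this measure the groups overlapped. For a single library the Wilson 95% interval of this share spanned at most 1.19 percentage points, which covers counting error only. GENCODE 29 places 3756 of the 3927 bases of the SNHG1 gene in exons of some transcript, so the counts do not separate spliced from unspliced RNA.

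SNHG1 shares its start region with SLC3A2, which encodes the heavy chain of an amino acid transporter and is read from the other strand, with 188 bases between the annotated starts. SLC3A2 stood at 388, 373 and 272 CPM in BD, 359, 378 and 247 CPM in NBD, and 428, 534 and 249 CPM in control. Its groups overlapped throughout, at a log2 fold change of 0.07 ± 0.29 between BD and NBD (edgeR, adjusted p = 0.985). The neighbour was chosen by position, after the values of SNHG1 had been seen, and the difference between the 2 genes was not tested.

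The other large C/D host, GAS5 (chromosome 1, 173863900 to 173868882, minus strand), was the most abundant member. It stood at 221, 307 and 334 CPM in BD, 234, 308 and 367 CPM in NBD, and 240, 259 and 286 CPM in control. The 3 groups overlapped, and between BD and NBD its log2 fold change was -0.08 ± 0.23 (edgeR, adjusted p = 0.978). ZFAS1 (chromosome 20, 49278178 to 49295738, plus strand), whose start lies 248 bases from that of the zinc finger gene ZNFX1 on the other strand, stood at 88.5, 135 and 149 CPM in BD, 96.3, 124 and 142 CPM in NBD, and 104, 99.0 and 113 CPM in control. Its log2 fold change was 0.04 ± 0.22 (adjusted p = 0.987). In both genes the spread within BD and within NBD was larger than the difference between the group means.

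SNHG16 (chromosome 17, 76557766 to 76565348, plus strand) stood at 154, 220 and 203 CPM in BD, 111, 170 and 194 CPM in NBD, and 157, 175 and 187 CPM in control. Its log2 fold change between BD and NBD was 0.28 ± 0.23 (edgeR, adjusted p = 0.866). SNHG6 (chromosome 8, 66921684 to 66926398, minus strand), host of SNORD87, stood at 30.8, 44.7 and 40.9 CPM in BD, 24.6, 43.4 and 57.8 CPM in NBD, and 33.6, 40.3 and 42.2 CPM in control. It had the widest NBD spread of the 9 genes, a coefficient of variation of 39.6%, and a log2 fold change of -0.11 ± 0.28 (adjusted p = 0.970). Neither gene separated any pair of groups.

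SNHG5 (chromosome 6, 85660950 to 85678748, minus strand), host of the SNORD50 pair, had the widest control spread of the 9 genes, a coefficient of variation of 51.9%. Control replicate 3 held 6.10 CPM, the lowest value of the 9 libraries, where control replicates 1 and 2 held 19.3 and 20.2 CPM. The sorted libraries spanned that gap, at 8.96, 16.4 and 20.3 CPM in BD and 9.48, 19.0 and 12.0 CPM in NBD. Against control, BD stood at a log2 fold change of 0.01 ± 0.46 with all libraries, at -0.36 without control replicate 3 and at 1.32 with that library as the only control (edgeR, adjusted p = 0.995, 0.479 and 1.00). The direction of this gene against control changed with the control libraries used.

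SNHG12, which carries C/D and H/ACA snoRNAs (chromosome 1, 28578538 to 28583132, minus strand), stood at 21.8, 18.8 and 19.5 CPM in BD, 33.3, 28.2 and 21.8 CPM in NBD, and 30.8, 35.7 and 21.2 CPM in control. All BD libraries were below all NBD libraries, as were those of 7.36% of tested genes, but the gap between BD replicate 1 and NBD replicate 3 was 21.81 against 21.83 CPM. The log2 fold change between BD and NBD was -0.47 ± 0.23 (edgeR, adjusted p = 0.814). Control replicate 3 lay among the BD values and control replicates 1 and 2 above them.

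The H/ACA host SNHG8 (chromosome 4, 118278709 to 118279823, plus strand), which carries SNORA24, stood at 26.8, 38.4 and 32.2 CPM in BD, 31.4, 35.5 and 42.6 CPM in NBD, and 45.6, 51.0 and 38.2 CPM in control. SNHG15 (chromosome 7, 44983023 to 44986961, minus strand), which carries SNORA9, stood at 41.4, 51.0 and 51.2 CPM in BD, 50.9, 57.4 and 55.4 CPM in NBD, and 37.5, 43.3 and 44.6 CPM in control. For SNHG15 all NBD libraries were above all control libraries, as were those of 4.67% of tested genes. Its log2 fold change between NBD and control was 0.38 ± 0.16 (edgeR, adjusted p = 0.539). SNHG8 overlapped between BD and NBD, at -0.17 ± 0.20 (adjusted p = 0.920).

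Over the whole set, edgeR called 0 of 9 host genes in the comparison of BD with NBD, where it called 0.0177% of genes. An unadjusted p under 0.05 was reached by 1 member, SNHG1, and by 5.86% of genes, and DESeq2 called the same 1 member. With 6 members below 0 and 3 above, the median log2 fold change was -0.11, against -0.02 over all genes tested. Of the 9, 8 were within 0.5 of 0 on the log2 scale, as were 79.2% of all genes.

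Against control, edgeR called 0 of 9 host genes in BD and 0 of 9 in NBD, and 0% of all genes in each, and DESeq2 called 0 members in each, with 0.987% and 0.171% of genes called. An unadjusted p under 0.05 was reached in BD by SNHG1 at -0.77 ± 0.22, SNHG12 at -0.54 ± 0.23 and SNHG8 at -0.47 ± 0.20, against 13.8% of all genes, and in NBD by SNHG15, against 9.13%. The member medians were 0.01 in BD and 0.11 in NBD, beside 0.03 and 0.04 over all genes. Without control replicate 3, edgeR called 2 of 9 members in BD, SNHG1 at -0.84 (adjusted p = 0.0213) and SNHG12 at -0.72 (adjusted p = 0.0261). In that fit 24.3% of all genes tested were called, and 10.5% of all genes tested were called lower. In NBD 0 of 9 were called in that fit, where 18.2% of genes were. These comparisons share the control libraries.

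**Figure D2:**
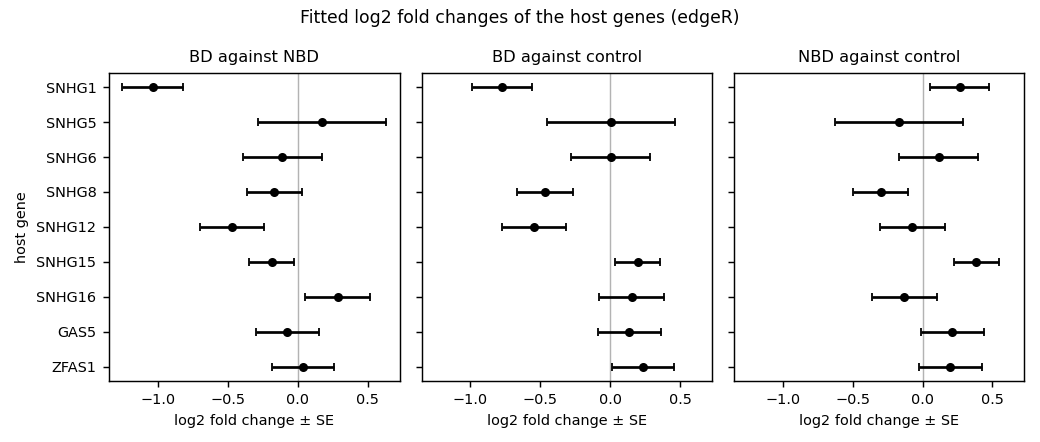
Log2 fold change ± SE (x axis, edgeR) of each host gene (y axis) in the 3 comparisons, with a grey line at 0. SNHG1 lies at -1.04 and -0.77 in the comparisons of BD with NBD and with control, and at 0.26 in NBD against control.

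Within the sorted groups, replicate 1 was an extreme of its group for all 9 members. In BD replicate 1, 7 members (SNHG5, SNHG6, SNHG8, SNHG15, SNHG16, GAS5 and ZFAS1) had their lowest BD level, and the other 2, SNHG1 and SNHG12, had their highest. NBD replicate 1 showed the same split with the same 7 and the same 2 genes. The share of all tested genes with replicate 1 as an extreme in both groups was not computed. Across all tested genes, BD replicate 1 and NBD replicate 1 deviated from their group means together (r = 0.61). The split is therefore not shown to be particular to the host genes. In control, replicate 3 held the lowest SNHG1, SNHG5, SNHG8 and SNHG12 and the highest level of the other 5 members. The summed level of the 8 hosts other than SNHG1 was 594, 831 and 850 CPM in BD and 591, 786 and 893 CPM in NBD. It was 668, 723 and 739 CPM in control, so replicate 1 held the least in each group, control included.

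**Figure D3:**
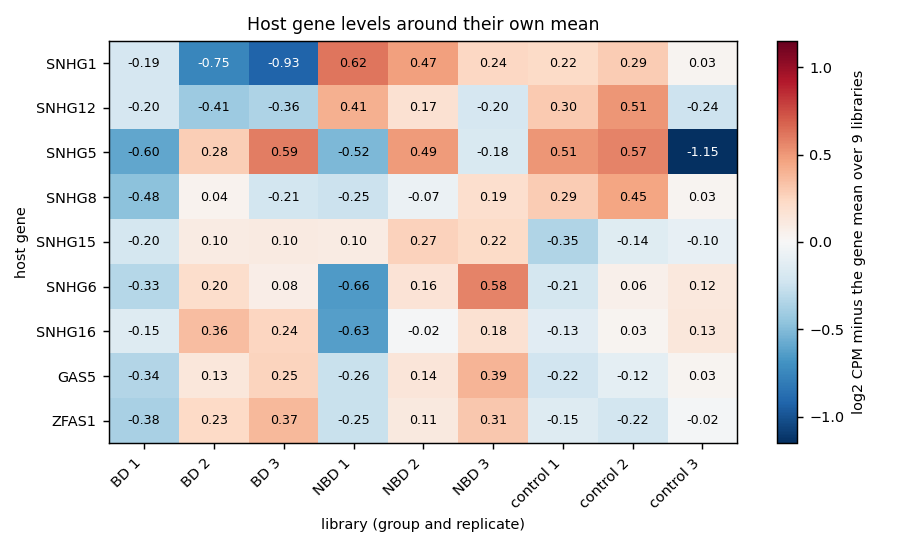
Log2 CPM of each host gene (rows) in each library (columns) after subtracting the gene's mean over the 9 libraries, with the value printed in each cell and the colour scale at the right. SNHG1 ranges from -0.93 in BD replicate 3 to 0.62 in NBD replicate 1, and SNHG5 lies at -1.15 in control replicate 3.

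By the root mean squared difference of these centred profiles, GAS5 was nearest to the mean of the 9 members (0.18 on the log2 scale), followed by SNHG15 and SNHG8 (0.19 each), and SNHG1 and SNHG5 were farthest (0.50 each). Among 10288 other genes with at least 5 CPM, the 5 nearest to the members' mean profile over the 9 libraries were EIF1, a translation start factor, MPV17, TTC9C, ATG14 and CMC2, at 0.07, 0.07, 0.07, 0.08 and 0.08. EIF1 stood at 182, 253 and 241 CPM in BD, 208, 266 and 247 CPM in NBD, and 253, 250 and 225 CPM in control. The members' mean profile is itself flat, between -0.32 and 0.19 in any library, so this likeness is to genes that varied little.

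The snoRNAs inside the hosts were almost uncounted. Of 22 snoRNA IDs that GENCODE 29 places inside 8 of the hosts on the same strand, 21 had 0 counts in all 9 libraries. SNORD12B in ZFAS1 had 1, 2 and 0 counts in BD, 1, 4 and 2 in NBD, and 2, 0 and 2 in control. A count of 0 allows up to 3 counts, 0.103 to 0.168 CPM depending on the library. Of the 22, 18 overlap an annotated exon of a host transcript and 4 lie in introns, and the sources used here do not give how reads that overlap 2 genes were counted. No statement on snoRNA production from these hosts can therefore be drawn from the counts.

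Some hosts overlap genes on the other strand, and the sources used here do not give the strand setting of the counting. In GENCODE 29, SNHG16 shares 1639 exonic bases with an unnamed protein-coding gene, SNHG6 shares 365 with MCMDC2, ZFAS1 shares 249 with ZNFX1, GAS5 shares 42 with GAS5-AS1 and SNHG12 shares 8 with TRNAU1AP. SNHG1, SNHG5, SNHG8 and SNHG15 overlapped no gene but their snoRNAs.

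Other non-coding snoRNA hosts were also uncalled between BD and NBD. Of 20 listed, 19 were tested, 0 were called in either direction, 13 were below 0 and the median log2 fold change was -0.24. The other 6 were above 0, as were 48.4% of all genes tested. SNHG4 stood at 16.7, 8.17 and 8.34 CPM in BD, 29.9, 40.6 and 15.7 CPM in NBD, and 59.6, 56.1 and 18.2 CPM in control. Its log2 fold change between BD and NBD was -1.38 ± 0.49 (edgeR, adjusted p = 0.814), and the highest BD library was above the lowest NBD library. With no filter on low counts edgeR called it (adjusted p = 0.00024), where 0.333% of genes were called. SNHG21 was at -0.88 ± 0.31 and SNHG14 at -0.47 ± 0.19, both uncalled (adjusted p = 0.814 each). In BD against control DESeq2 called 1 of the 19, SNHG4 (adjusted p = 0.00890), where it called 0.987% of genes. Without control replicate 3 edgeR called 7 lower and 0 higher. In that fit 24.3% of all genes tested were called, and 10.5% were called lower.

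Hosts that encode proteins did not share one direction. Of 20 outside the ribosomal proteins, all tested, 10 were above 0 and 10 below between BD and NBD, at a median of -0.01, with 0 called. EEF2, an elongation factor of translation, stood at 0.79 ± 0.24 (edgeR, adjusted p = 0.735) and TAF1D, a factor of rRNA gene transcription, at -0.63 ± 0.24 (adjusted p = 0.814). All 24 ribosomal protein genes that host snoRNAs were above 0, against 48.4% of all genes tested, at a median of 0.31. Of the 24, 0 were called and 0 had an unadjusted p under 0.05. RPL7A was at 0.46 ± 0.30 and RPL13 at 0.51 ± 0.34 (adjusted p = 0.840 each).

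Genes for the proteins of snoRNA particles were also uncalled between BD and NBD, 10 of 17 above 0 at a median of 0.12. RUVBL2, an ATPase of particle assembly, was at 0.47 ± 0.19 and NOP58, a core protein of C/D particles, at -0.36 ± 0.16 (edgeR, adjusted p = 0.814 each). Of 15 nonsense-mediated decay factors 0 were called and 8 were above 0, at a median of 0.00068. UPF3B was at -0.86 ± 0.24 (adjusted p = 0.705), with 5.24, 6.32 and 5.89 CPM in BD, 8.30, 12.1 and 11.2 CPM in NBD, and 12.6, 10.0 and 8.85 CPM in control. The BD libraries of UPF3B were below all others, as were those of 2.56% of tested genes. NOP58 showed this too, narrowly, at 76.9 CPM in BD replicate 1 against 77.2 CPM in control replicate 3. So did the protein-coding host EIF4A2. SMG1, the kinase of nonsense-mediated decay, was at -0.72 ± 0.33 (adjusted p = 0.814). Of 17 known targets of the pathway 0 were called and 9 were below 0, at a median of -0.08, with TBL2 at 0.69 ± 0.19 and TRA2A at -0.59 ± 0.18 (adjusted p = 0.683 and 0.730).

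**Figure D4:**
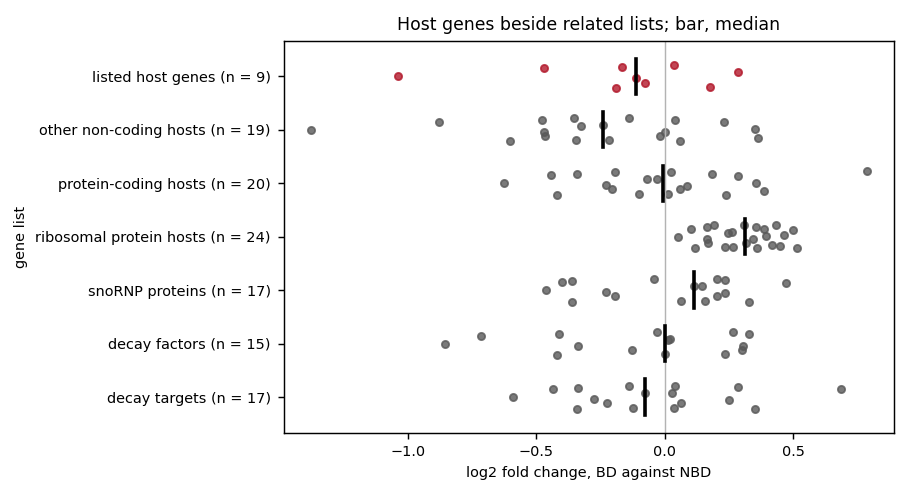
Log2 fold change between BD and NBD (x axis) of the tested members of each gene list (y axis, with the number tested), 1 point per gene and a black bar at the median. The 9 host genes, in red, have a median of -0.11 with SNHG1 at -1.04, and all 24 ribosomal protein hosts lie above 0.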

How the data were processed

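Stranded, rRNA-depleted total RNA libraries were sequenced as paired ends, per the labels' protocols. They name 2 micro-scale RNA kits without saying which library came from which. The authors deposited raw counts per gene, made with FastQC 0.74, Trimmomatic 0.39, STAR 2.7.11b and featureCounts on GRCh38, as the submitters' processing notes list. Which annotation release and strand setting were used: not given in the sources used here. Symbols came from a gene name table, and positions, lengths and types from GENCODE 29 (GRCh38). Sequences are from RefSeq (GRCh38.p14) and GENCODE 29.

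Counts were tested with edgeR 4.0.16 in R 4.3.3: filterByExpr, TMM scaling (factors 0.862 to 1.09) and 1 quasi-likelihood fit of all 9 libraries by group, with 6 residual degrees of freedom before moderation. Tests were two-sided, adjusted by Benjamini-Hochberg over 16921 genes and called at an adjusted p under 0.05. Alternatives were other size factors, no filter, at least 1 CPM in 3 libraries, DESeq2 1.42.0, limma-voom (limma 3.58.1), a replicate block, 6 libraries alone, each library left out, and control replicate 3 as the only control. A fit without the mitochondrial rRNA genes was added after seeing the data. Figures used matplotlib 3.10.9 in Python 3.11.15.

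The labels do not say whether replicates are separate cultures; if not, the spread behind each p-value may be technical. Host genes and lists were chosen with earlier results of these data known. Named are all 9 hosts, up to 3 members per list by smallest unadjusted p between BD and NBD, and the 5 genes nearest in profile.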

Additional observations from a re-analysis of the deposited data

How the results depend on the processing

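Of 486 refits of single host genes, 446 kept the direction and the side of the threshold, 36 changed sign and 4 gained a call. No fit reversed SNHG1, SNHG8 or SNHG15 in any of the 3 comparisons. The count of host genes called between BD and NBD was 0 in the reported fit, 1 with DESeq2 and 1 with no filter, and 0 in each fit with 1 library left out. In BD against control it ran from 0 to 2 over the fits with 1 library left out, 2 being without control replicate 3, and in NBD against control it was 0 in every fit. Values that changed sign were all uncalled and the cause was not tested. For SNHG5 in BD against control they were -0.0016 with DESeq2 size factors, -0.0029 with DESeq2 and -0.0068 with 6 libraries alone, and -0.36 to 0.29 with 1 library left out. For SNHG6 in that comparison they were -0.0052, -0.0051 and -0.0083 in the same 3 fits, -0.0021 with the stricter filter, -0.012 with limma-voom, -0.0096 with the replicate block, -0.13 with control replicate 3 alone, and -0.11 to 0.15 with 1 library left out. In NBD against control SNHG5 was at 0.011 with limma-voom, and with control replicate 3 alone SNHG5, SNHG6 and SNHG12 were at 1.13, -0.016 and 0.37. Leaving out 1 library gave -0.53 to 0.091 for SNHG5, -0.19 to 0.39 for SNHG6, -0.24 to 0.094 for SNHG12 and -0.31 to 0.077 for SNHG16. Between BD and NBD it gave -0.082 to 0.51 for SNHG5, -0.38 to 0.20 for SNHG6, -0.23 to 0.092 for GAS5 and -0.11 to 0.22 for ZFAS1.

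Samples of the same replicate number deviated together at r = 0.036 to 0.61 over 9 pairs, across genes, and samples of different numbers at -0.57 to 0.42. In 14 of 18 cases a library correlated best with its own number in another group. These cases reuse the same correlations, and deviations from a mean of 3 libraries cancel out within a group. The 18 cases are therefore not independent, and how many would arise without shared origin was not tested. The correlations are no more than a hint from the data that same-numbered samples deviate together. The labels do not say that a number marks a shared origin, and 3 of the 9 same-numbered pairs were at 0.068, 0.040 and 0.036, so the reported fit has no block. With the replicate block 0 host genes and 0 genes in all were called in each comparison, against 3 genes between BD and NBD without it, and SNHG1 stood at -1.06 between BD and NBD (edgeR, adjusted p = 0.167). SNHG5 had the fewest counts of the 9 genes, 162 to 590 per library, and a coefficient of variation of 36.6 to 51.9% within groups.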
